A study of Mus musculus with 42 samples.

Results

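Integrins are the adhesion receptors of the cell surface, and the data described here are the RNA levels of 10 integrin subunits in bone-marrow-derived macrophages (BMDM), macrophages grown in culture from mouse bone marrow. The 10 genes are Itgb2 with the alpha partners Itgal, Itgam and Itgax, Itgb1 with Itga4, Itga5 and Itga6, and Itgav and Itgb3. They were picked by symbol out of 37310 genes in the count table, and the list was drawn up when earlier results of these data were known, so that every difference of Itgax between genotypes is described below with no test. The mice, males per the study's methods, carried a deletion of Irf5 in myeloid cells, made with loxP-flanked Irf5 and a Cre recombinase inserted in Lyz2 (KO), or were wild type (WT). Cells of each genotype were kept untreated (Control) for 0, 2 or 24 h, or received palmitate (a saturated fatty acid) or lipopolysaccharide (LPS, a component of the bacterial wall) for either of the later times. Each of the 14 groups had 3 libraries, 42 in all. No source used here says that the 3 came from separate mice, or that the conditions did. The p-values therefore measure the spread between these libraries, which may be technical.

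An integrin is a pair of 1 alpha and 1 beta chain, and the pair decides what the cell can bind. The beta2 integrins belong to leukocytes: alphaL beta2 (LFA-1, from Itgal) binds ICAM molecules on other cells, alphaM beta2 (Mac-1 or CD11b/CD18, from Itgam) binds complement fragments and fibrinogen, and alphaX beta2 (CD11c/CD18, from Itgax) is used as a marker of dendritic cells and of some tissue macrophages. The beta1 integrins bind matrix and VCAM-1: alpha5 beta1 is a fibronectin receptor, alpha4 beta1 binds VCAM-1 and fibronectin, and alpha6 beta1 binds laminin. AlphaV pairs with beta1, beta3, beta5, beta6 and beta8, which bind vitronectin, osteopontin and latent TGF-beta. Beta3 pairs with alphaV and, in platelets, with alphaIIb.

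The libraries held 2848793 to 7743442 counts, with a median of 5625399. A count of 3 corresponds to 0.387 to 1.05 CPM (counts scaled to a common library size). All 10 subunits were well above that in every library, from a lowest value of 37 counts (Itgb3) to a highest of 9317 (Itgam), and all 10 passed the filter on low counts that kept 11624 genes for testing. Macrophage markers were present throughout: Adgre1 was at 1159 to 3519 CPM and Csf1r at 1622 to 2575 CPM. Of 8 macrophage markers 2 were called higher and 5 lower in KO at Control 0 h, beside 6.4% and 6.06% of all genes. Over the 7 conditions 1 was higher and 4 lower, beside 6.03% and 5.33%. In each other single condition 0 were higher and 1 lower, which was Lyz2. Their summed level at Control 0 h had a median of 15049 CPM in WT and 11957 CPM in KO. Lyz2, the most abundant, had a mean of 10190 CPM in WT and 7170 CPM in KO there. Irf5 itself was not lower in the libraries labelled KO (log2 fold change 0.27, SE 0.02, over the 7 conditions). A count over the whole gene does not show whether a part of it was deleted, so the label could not be checked by Irf5. Lyz2, where the Cre recombinase was inserted, was lower in 7 of 7 conditions (-0.84, SE 0.04). Groups are therefore named by their labels, and every genotype difference below is that of libraries labelled KO against libraries labelled WT.

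The 3 beta2 alpha genes among the 10 lie on chromosome 7 of GRCm38/mm10, all on the plus strand. These are Itgal at 127296260 to 127335138, Itgam at 128062640 to 128118491 and Itgax at 128129547 to 128150657. Itgam and Itgax encode alternative partners of the same beta chain and are next to each other, yet they moved in opposite directions after 24 h of LPS, as described below. For that reason their promoters are shown side by side. RefSeq (GRCm38.p6) gave a promoter for 6 of the 10 subunits. The 250 bases before the RefSeq start site are printed 5′ to 3′ on the plus strand, chr7:128062390-128062639 for Itgam and chr7:128129300-128129549 for Itgax. Capitals mark matches to 4 motifs searched on both strands.

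Itgam: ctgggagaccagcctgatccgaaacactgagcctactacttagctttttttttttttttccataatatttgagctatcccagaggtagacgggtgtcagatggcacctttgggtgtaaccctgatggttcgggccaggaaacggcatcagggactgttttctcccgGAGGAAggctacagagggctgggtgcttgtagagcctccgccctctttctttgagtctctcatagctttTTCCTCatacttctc
Itgax: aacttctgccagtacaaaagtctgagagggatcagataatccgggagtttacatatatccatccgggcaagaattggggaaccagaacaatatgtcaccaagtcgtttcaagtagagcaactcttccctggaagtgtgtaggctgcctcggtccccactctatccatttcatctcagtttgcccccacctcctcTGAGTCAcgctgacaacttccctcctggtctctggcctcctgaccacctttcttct

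The Itgam promoter held the PU.1-type element GAGGAA at -84 to -79 and its reverse complement at -15 to -10, counted back from -1, the last base before the start. PU.1 is the main ETS factor of the myeloid lineage. The Itgax promoter held no such element, and had 1 AP-1 element (TGANTCA, which reads as the same motif on both strands) at -56 to -50. Neither promoter held an interferon-type element (GAAA, 2 bases of any kind, GAAA) or the NF-kappaB pattern searched (GGG, 4 bases of any kind, then TTCC or CCC). Among 32851 promoters of the same 250 bases, 23.3% held the PU.1-type element, 6.75% the AP-1 element, 13.95% the NF-kappaB pattern and 2.98% the interferon-type element. Of the other 4 promoters, those of Itgav, Itgb1 and Itga5 also held the PU.1-type element, and that of Itga4 held none of the 4 motifs. These matches are letters in a window and say nothing of binding.

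Levels between genes can be compared only per length, so CPM was divided by the kilobases of merged exon (GENCODE M21). In untreated WT cells at 0 h the order was Itgb2 with 290 ± 5.59 CPM per kb, Itgam with 164 ± 3.07 and Itgb1 with 128 ± 5.38 (SD, n = 3 here and below). Then came Itgav (42.7), Itga6 (30.1), Itga5 (20.1), Itgal (14.3), Itgax (10.3), Itga4 (10.1) and Itgb3 (2.41). The library ranges of Itgax and Itga4 overlapped and all other neighbours were separate. Itgb2 was first in all 14 groups. In WT cells Itga5 stood next to it after 2 h of LPS (190 CPM per kb), above Itgam (160), and in KO cells at that time their libraries overlapped. After 24 h of LPS Itgal ranked 4 of 10 in both genotypes (96.6 CPM per kb in WT and 96.1 in KO), and Itgax and Itgb3 were the last pair, at 1.71 and 1.35 CPM per kb in WT. These lengths differ between subunits in how much alternative exon they hold: with the longest transcript as length, the mean level of Itga6 over all libraries was 51.5 in place of 24.6 CPM per kb.

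**Figure D1:**
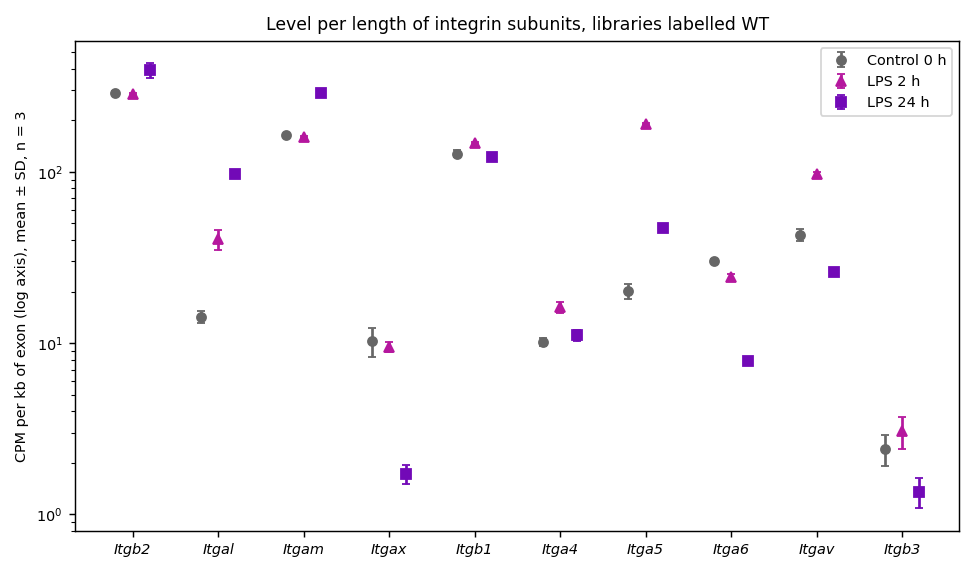
Level per kilobase of exon (CPM per kb, log axis) of the 10 integrin subunits in the libraries labelled WT at Control 0 h, LPS 2 h and LPS 24 h, as mean with SD of 3 libraries. Itgb2 is highest at all 3 points, Itga5 is next to it at LPS 2 h, and Itgax, Itga6 and Itgb3 are lowest at LPS 24 h.

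Over the 14 group means the spread was widest for Itga5, whose highest group mean was 9.95 times its lowest, followed by Itgax (9.30) and Itgal (6.76). Itgb3 (4.82), Itgav (4.28) and Itga6 (4.10) lay between, and Itga4 (1.94), Itgam (1.86), Itgb2 (1.45) and Itgb1 (1.41) varied least. The beta chains Itgb1 and Itgb2 thus had the narrowest ranges of the set.

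**Figure D2:**
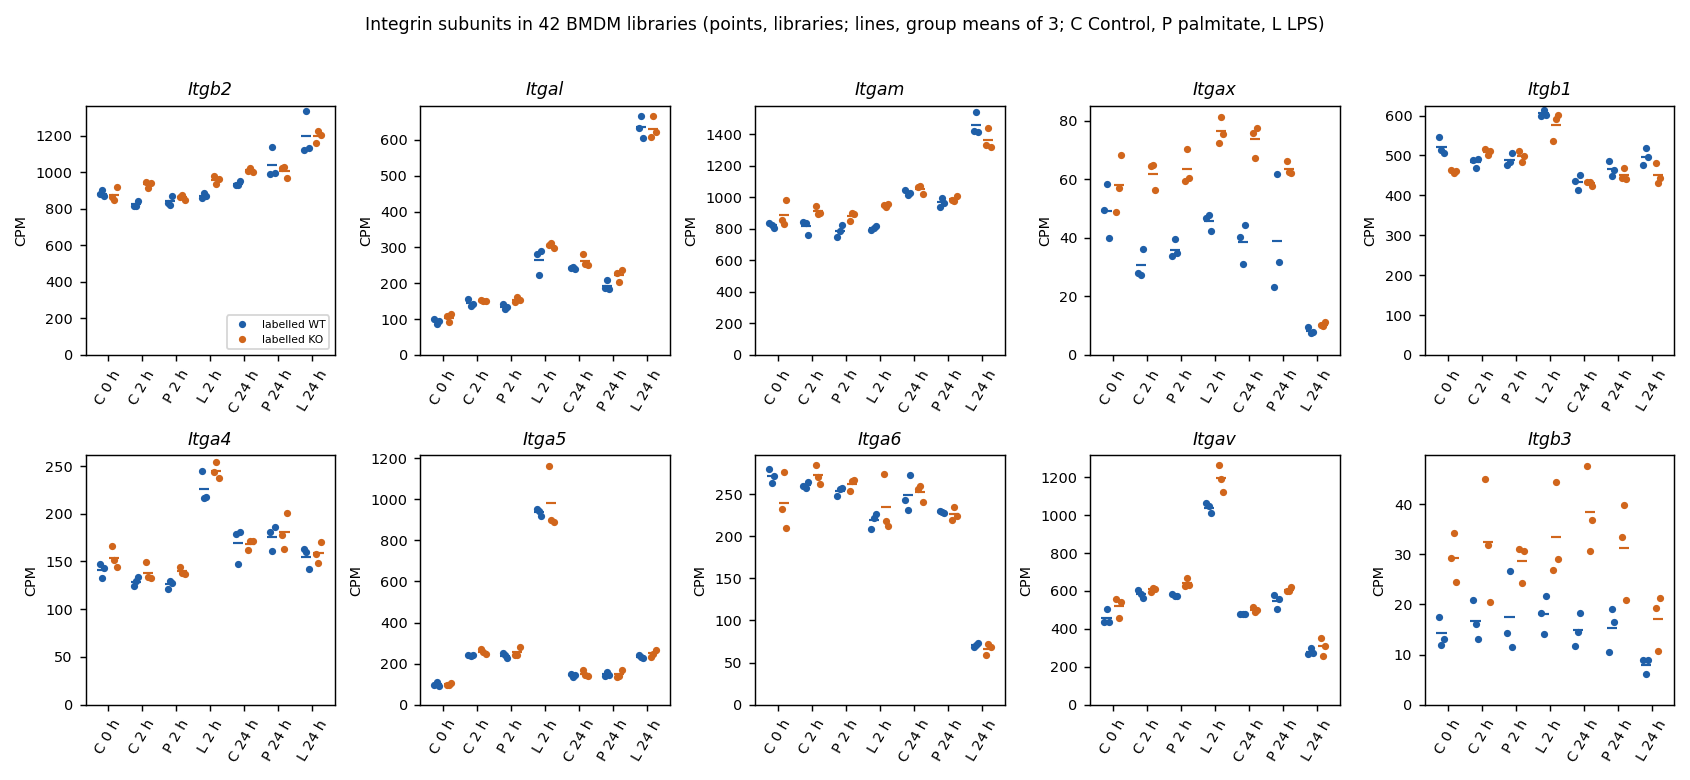
CPM of the 10 integrin subunits in each of 42 libraries, by condition (C Control, P palmitate, L LPS), with libraries labelled WT in blue and KO in orange and a line at each group mean. Each panel has its own axis from 0; Itga5, Itgav and Itga4 peak at LPS 2 h, Itgal, Itgam and Itgb2 are highest at LPS 24 h, Itgax and Itga6 are lowest there, and Itgb3 is higher in KO.

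The LPS comparisons ask how the integrin repertoire moved when macrophages met a bacterial stimulus, each against Control of the same time and genotype. After 2 h in WT cells, 7 of 10 subunits were called at an adjusted p under 0.05 (edgeR quasi-likelihood test, Benjamini-Hochberg over all genes tested), 6 higher and 1 lower. Of all genes 23.1% were called, 14% higher and 9.1% lower. After 24 h, 5 of 10 were higher and 4 lower in WT, beside 19.6% and 19.9% of all genes (39.5% called). In KO cells 5 were higher and 1 lower at 2 h, beside 14.7% and 9.16% of all genes (23.9% called). At 24 h in KO 4 were higher and 4 lower, beside 19.9% and 21.0% (40.9% called). The median log2 fold change of the 10 was 0.45 at 2 h and 0.04 at 24 h in WT, beside -0.01 over all genes at both times. LPS and palmitate were compared with the same Control libraries. In such bulk RNA, fewer cells expressing a gene and less RNA per cell cannot be told apart.

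**Figure D3:**
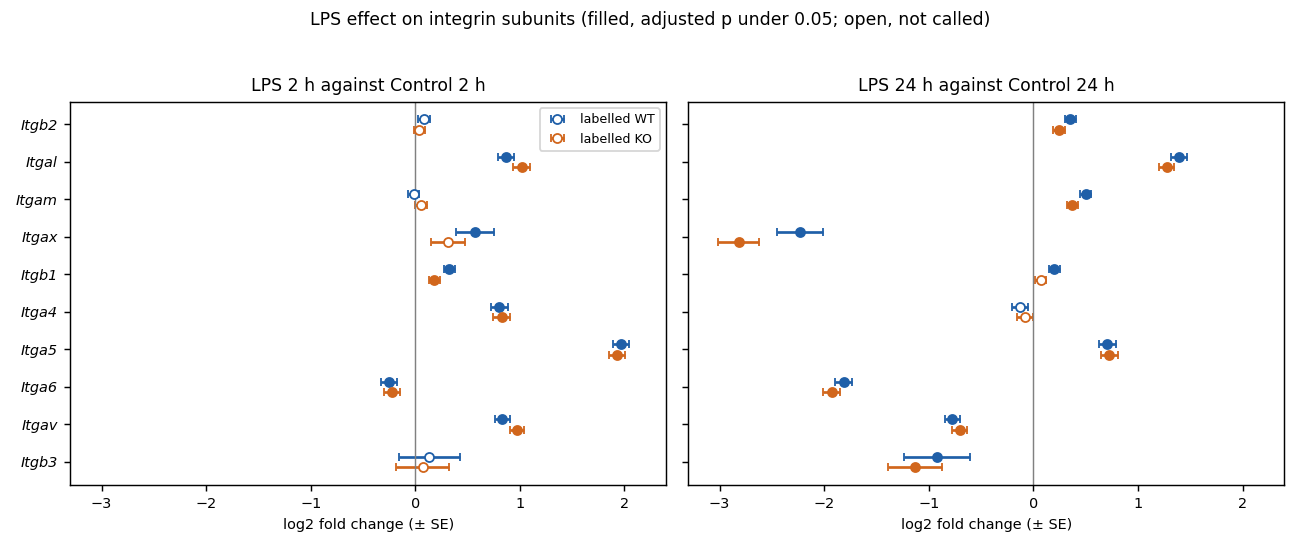
Log2 fold change with SE of each integrin subunit, LPS against Control, at 2 h (left) and 24 h (right) in libraries labelled WT (blue) and KO (orange), with filled points for an adjusted p under 0.05. Itga5, Itgav, Itga4 and Itgal lie to the right of 0 at 2 h, and Itgax, Itga6, Itgb3 and Itgav to the left at 24 h, in both genotypes.

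Among the beta2 alphas Itgal rose at both times. The WT Control libraries had 157, 136 and 142 CPM at 2 h, and the LPS libraries 281, 223 and 289 CPM. At 24 h the Control libraries had 242, 244 and 239 CPM and the LPS libraries 632, 665 and 606 CPM. The groups did not overlap at either time. The rise was 1.82-fold at 2 h (log2 0.87, SE 0.08, adjusted p 5.52e-13 by edgeR) and 2.63-fold at 24 h (1.39, SE 0.08, adjusted p 1.62e-21). In KO cells it was 2.02-fold and 2.42-fold.

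Itgam was not called at 2 h (log2 -0.02 in WT, SE 0.05, and 0.05 in KO, SE 0.05). At 24 h the WT Control libraries had 1046, 1017 and 1030 CPM and the LPS libraries 1418, 1542 and 1414 CPM, with no overlap, a 1.41-fold rise (log2 0.50, SE 0.05, adjusted p 4.28e-11 by edgeR). In KO cells the rise was 1.30-fold. Itgam shares 3450 exon bases with Gm49368, a gene model on the same strand that has no row in the table used here.

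Itgax went the other way. At 24 h its WT Control libraries had 40.1, 31 and 44.4 CPM and its LPS libraries 9.41, 7.45 and 7.81 CPM. The KO libraries fell from 76, 67.4 and 77.4 CPM to 10.3, 9.71 and 11.1 CPM. No Control library came near an LPS library. The log2 fold change was -2.23 in WT (SE 0.22, adjusted p 3.05e-12 by edgeR) and -2.82 in KO (SE 0.20, adjusted p 2.27e-17), the strongest decrease of the 10 subunits in both genotypes. At 2 h Itgax had instead been higher in WT (log2 0.57, SE 0.18, adjusted p 0.0171), a call that was lost without Control 2 h library 1 (adjusted p 0.0711), Control 2 h library 2 (0.0854) or LPS 2 h library 2 (0.0696). In KO it was 0.31 (SE 0.16) and not called. The neighbouring Itgam and Itgax promoters printed above thus belong to genes that differed in direction at 24 h, Itgam 1.41-fold higher and Itgax at 0.213 of its Control level in WT.

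Itgb2, the chain all these alphas need, was little changed at 2 h (log2 0.08 in WT, SE 0.05) and rose 1.28-fold at 24 h in WT (adjusted p 3.89e-07 by edgeR) and 1.18-fold in KO (adjusted p 0.000209). Its WT libraries went from 932, 934 and 951 CPM to 1122, 1339 and 1135 CPM. As shares of the summed level per kb of Itgal, Itgam and Itgax, Itgal was 7.60 ± 0.58% in WT at Control 0 h, 14.7 ± 0.33% at Control 24 h and 24.9 ± 0.38% at LPS 24 h. Itgax went from 5.45 ± 0.97% to 3.21 ± 0.54% and 0.442 ± 0.069% in the same groups, and Itgam from 87.0 to 82.1 and 74.7%. The sum of the 3 alphas was 0.649 of the Itgb2 level per kb at Control 0 h and 0.993 at LPS 24 h.

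**Figure D4:**
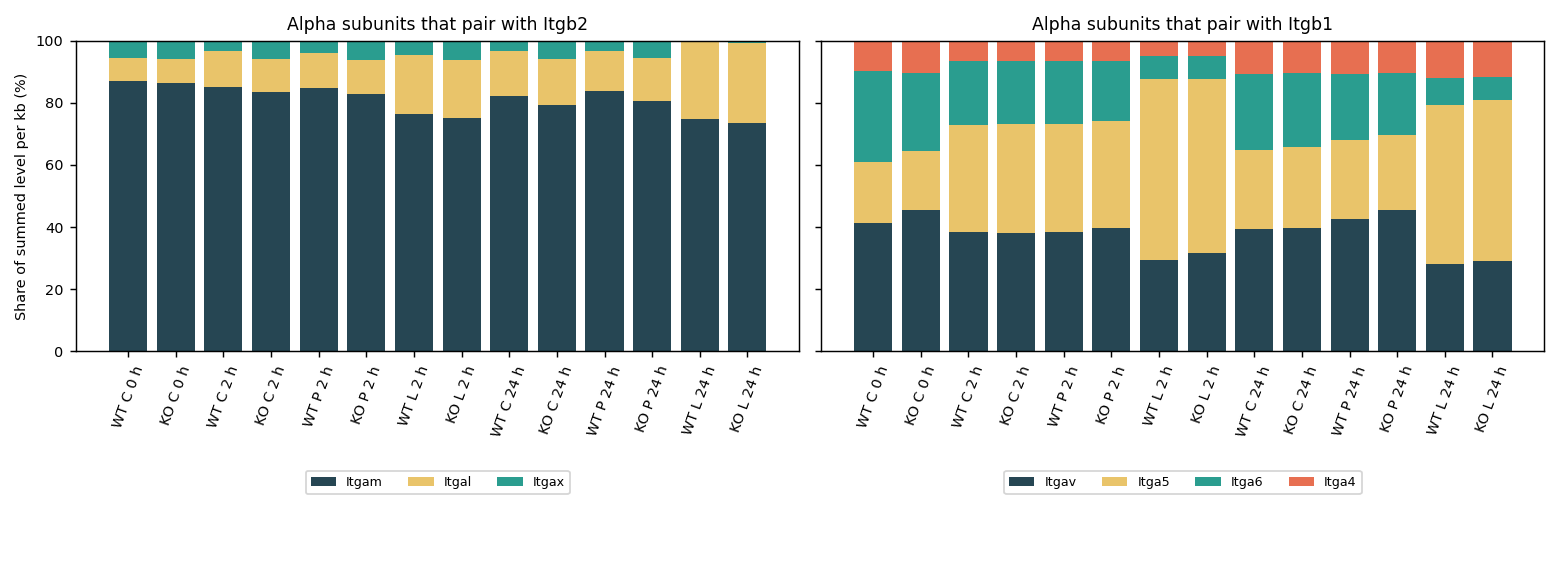
Share (%) of each alpha subunit in the summed level per kb of the alphas that can pair with Itgb2 (left) and with Itgb1 (right), as stacked means of 3 libraries for each of 14 groups. The Itgal share is largest and the Itgax share smallest at LPS 24 h, and the Itga5 share in WT is 58.1% at LPS 2 h and 51.1% at LPS 24 h.

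Of the beta1 set, Itga5 showed the strongest rise. Its WT Control libraries had 241, 237 and 242 CPM at 2 h and the LPS libraries 953, 942 and 921 CPM, 3.91-fold higher (log2 1.97, SE 0.08, adjusted p 2.19e-26 by edgeR). KO cells went from 269, 256 and 248 CPM to 1161, 902 and 891 CPM, 3.81-fold higher. KO LPS 2 h library 1, with 1161 CPM, lay apart from libraries 2 and 3 of its group, and also had the most Itgav (1265 CPM) and Itga6 (274 CPM) of that group. That library had the fewest counts of all 42 (2848793). Across genes its chi-square per degree of freedom was 9.32 against library 2 and 7.76 against library 3, and 2.94 between those. At 24 h the rise of Itga5 was 1.63-fold in WT and 1.65-fold in KO, with adjusted p 7.11e-10 and 2.56e-10.

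Itga4 rose at 2 h only. Its WT Control libraries had 124, 130 and 133 CPM and its LPS libraries 245, 216 and 218 CPM, 1.75-fold higher (adjusted p 4.32e-12 by edgeR), and in KO it was 1.77-fold higher. At 24 h its log2 difference was -0.13 in WT (SE 0.08) and -0.08 in KO (SE 0.08), with overlapping libraries. The difference between the 24 h and the 2 h effect was itself called (-0.92, SE 0.08, adjusted p 2.3e-14). Itga4 shares 1124 exon bases with Cerkl on the other strand, which had a mean of 7.31 counts per library.

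Itga6, the laminin receptor chain, fell. At 24 h the WT Control libraries had 243, 231 and 273 CPM and the LPS libraries 68.1, 70.8 and 73.6 CPM, and the KO libraries went from 257, 260 and 241 CPM to 59.5, 71.7 and 68.1 CPM. The decrease left 0.284 of the Control level in WT (log2 -1.81, SE 0.08, adjusted p 1.07e-24 by edgeR) and 0.263 in KO. At 2 h the decrease was small (log2 -0.25 in WT and -0.23 in KO, both called). The WT call at 2 h was lost without LPS 2 h library 1 (adjusted p 0.052), and the KO call without Control 2 h library 1 (0.08), LPS 2 h library 2 (0.139) or LPS 2 h library 3 (0.147) and with only the libraries compared (0.1002).

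Itgb1 rose slightly at 2 h, 1.25-fold in WT (adjusted p 2.07e-06 by edgeR) and 1.13-fold in KO (adjusted p 0.00803). The KO call was lost without Control 2 h library 2 (0.0626) or LPS 2 h library 3 (0.0954), with all genes that had a count kept in the fit (0.130) and with only the libraries compared (0.0773). At 24 h Itgb1 was 1.15-fold higher in WT (adjusted p 0.00196) and in KO its log2 difference was 0.07 (SE 0.05). The difference of the LPS effect between genotypes was not called for Itgb1 at either time. Of the summed level per kb of Itga4, Itga5, Itga6 and Itgav, Itga5 made up 19.5 ± 1.10% in WT at Control 0 h, 34.5 ± 0.37% at Control 2 h, 58.1 ± 0.04% at LPS 2 h and 51.1 ± 1.21% at LPS 24 h. The Itga6 share fell from 29.3% at Control 0 h to 8.56% at LPS 24 h. That alpha sum stood at 0.806 of the Itgb1 level per kb at Control 0 h, 2.21 at LPS 2 h and 0.755 at LPS 24 h. Itgav, Itga6 and Itga4 also pair with other beta chains.

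Itgav rose early and fell late. In WT the Control libraries had 604, 585 and 565 CPM at 2 h and the LPS libraries 1062, 1046 and 1013 CPM, 1.78-fold higher (adjusted p 3.22e-14 by edgeR). At 24 h they went from 478, 477 and 478 CPM down to 269, 297 and 271 CPM, 0.584 of the Control level (log2 -0.78, SE 0.07, adjusted p 5.16e-13). KO cells showed a log2 fold change of 0.97 at 2 h (SE 0.07) and -0.70 at 24 h (SE 0.07). The 24 h effect was lower than the 2 h effect by 1.64 on the log2 scale (-1.64, SE 0.07, adjusted p 2.73e-25). Itgav shares 634 exon bases with Gm13684 on the other strand, which had a mean of 0.143 counts per library.

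Itgb3, the scarcest of the 10, was not called at 2 h (log2 0.13 in WT, SE 0.29). At 24 h its WT libraries went from 11.8, 14.4 and 18.2 CPM to 8.90, 6.12 and 8.88 CPM and its KO libraries from 47.7, 30.6 and 36.8 CPM to 19.2, 10.6 and 21.4 CPM, without overlap in either genotype. The log2 fold change was -0.92 in WT (SE 0.31, adjusted p 0.0155 by edgeR) and -1.13 in KO (SE 0.26, adjusted p 0.000272). The WT call was lost without Control 24 h library 3 (adjusted p 0.118) or LPS 24 h library 2 (0.0766).

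The LPS effect at 24 h was compared directly with that at 2 h over both genotypes. It was higher for 3 of 10 subunits (Itgal, Itgam and Itgb2) and lower for 6, all others but Itgb1. Of all genes 21.7% were higher and 24.5% lower (46.3% called).

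The effects of LPS and palmitate were also compared between the 2 genotypes, at 2 h and at 24 h. In each of these 4 tests edgeR called 0 of the 9 members other than Itgax and DESeq2 called 0, and 0 had an unadjusted p under 0.05. Over all genes 0.0086% were called at LPS 24 h and 0.0% in the other 3 tests. The widest of these differences among the 9 was that of Itgb3 at palmitate 24 h, -0.30 with a 95% interval from -1.04 to 0.44. For Itgax, given with no test, the LPS effect at 24 h was -2.82 in KO and -2.23 in WT, as above.

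The palmitate comparisons ask whether a saturated fatty acid changed the same receptors. At 2 h edgeR called 0 of 10 subunits in either genotype, where 0.275% of all genes were called in WT and 0.112% in KO. DESeq2 also called 0 in both, and 0 members in WT and 1 in KO had an unadjusted p under 0.05. At 24 h 1 of 10 was called in WT (0.852% of all genes) and 1 of 10 in KO (0.877%). In WT this was Itgal, with 242, 244 and 239 CPM in Control and 187, 208 and 183 CPM with palmitate (log2 -0.33, SE 0.08, adjusted p 0.0204 by edgeR). In KO Itgal was at -0.23 (SE 0.08), not called, also with no overlap. In KO the gene called was Itgav, with 517, 489 and 498 CPM in Control and 602, 602 and 619 CPM with palmitate (log2 0.28, SE 0.07, adjusted p 0.0352). In WT Itgav was at 0.19 (SE 0.07), not called, with no overlap. The Itgal call was lost without any 1 of 5 of its 6 libraries (adjusted p up to 0.14) and the Itgav call without any 1 of its 6 (up to 0.188). Neither difference was shown to differ between genotypes. Over both genotypes the palmitate effect did not differ between 24 h and 2 h for any subunit by edgeR or DESeq2 (0 of 10, 1.28% of all genes), with 3 at an unadjusted p under 0.05.

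Keeping untreated cells in culture also moved several subunits, and the Control groups were compared over both genotypes. From 0 to 2 h, 3 of 10 rose and 0 fell, beside 9.35% and 7.36% of all genes (16.7% called): Itga5 2.49-fold (log2 1.32, SE 0.06, adjusted p 1.29e-23 by edgeR), Itgal 1.5-fold and Itgav 1.22-fold. The WT libraries of Itga5 went from 93.9, 110 and 92.9 CPM to 241, 237 and 242 CPM. From 0 to 24 h, 5 rose and 1 fell, beside 7.9% and 8.62% of all genes (16.5% called). Itgal was 2.54-fold higher (log2 1.35, SE 0.06, adjusted p 4.72e-24), Itga5 1.47-fold, Itgam 1.22-fold, Itga4 1.15-fold and Itgb2 1.11-fold higher. Itgb1 was the one that fell, to 0.881 of its level at 0 h (adjusted p 0.000251). Itgal therefore rose in culture alone, and LPS at 24 h added to that rise.

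The genotype comparisons ask what differed between libraries labelled KO and WT within a condition. The members counted are the 9 others, without Itgax. At Control 0 h edgeR called 2 of 9, Itgb3 higher and Itgb1 lower, beside 6.4% and 6.06% of all genes (12.5% called). At LPS 2 h it called 1 of 9, Itgam (0.465% of all genes), and at Control 24 h 1 of 9, Itgb3 (0.12% of all genes). It called 0 of 9 at Control 2 h (0.49% of all genes), palmitate 2 h (0.146%), palmitate 24 h (0.0688%) and LPS 24 h (0.146%), where 3, 4, 3 and 2 members had an unadjusted p under 0.05. DESeq2 called 1 of 9 at Control 2 h, Itgb2, and 0 in the other 3.

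Itgb3 was higher in the KO group mean in 7 of 7 conditions, by 0.72 to 1.32 on the log2 scale. At Control 0 h the WT libraries had 17.6, 12.0 and 13.1 CPM and the KO libraries 29.2, 34.2 and 24.5 CPM, 2.08-fold higher (log2 1.06, SE 0.27, adjusted p 0.00568 by edgeR). At Control 24 h the WT libraries had 11.8, 14.4 and 18.2 CPM and the KO libraries 47.7, 30.6 and 36.8 CPM, 2.50-fold higher (log2 1.32, SE 0.27, adjusted p 0.0127). This second call was lost without KO library 1 (adjusted p 0.135), WT library 1 (0.178) or WT library 2 (0.130). The groups overlapped at Control 2 h and palmitate 2 h and were separate in the other 5 conditions. With all genes that had a count kept in the fit, Itgb3 was called in every one of the 7 conditions, with adjusted p at Control 2 h of 2.14e-07 in place of 0.0765. An average over the 7 conditions in the same fit was added after these values had been seen. The fit treats the libraries of all conditions as independent. No source used here says that the conditions came from separate mice, so the SE and p-values of this average may be too small. In this average Itgb3 was 2.03-fold higher in KO (log2 1.02, SE 0.10, adjusted p 3.59e-10 by edgeR), where 11.4% of all genes were called, 6.03% higher and 5.33% lower. Itgav (log2 0.14, SE 0.03), Itgal (0.13, SE 0.03) and Itgam (0.09, SE 0.02) were also called there, making 4 of 9, all higher and the last 3 by under 10%.

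**Figure D5:**
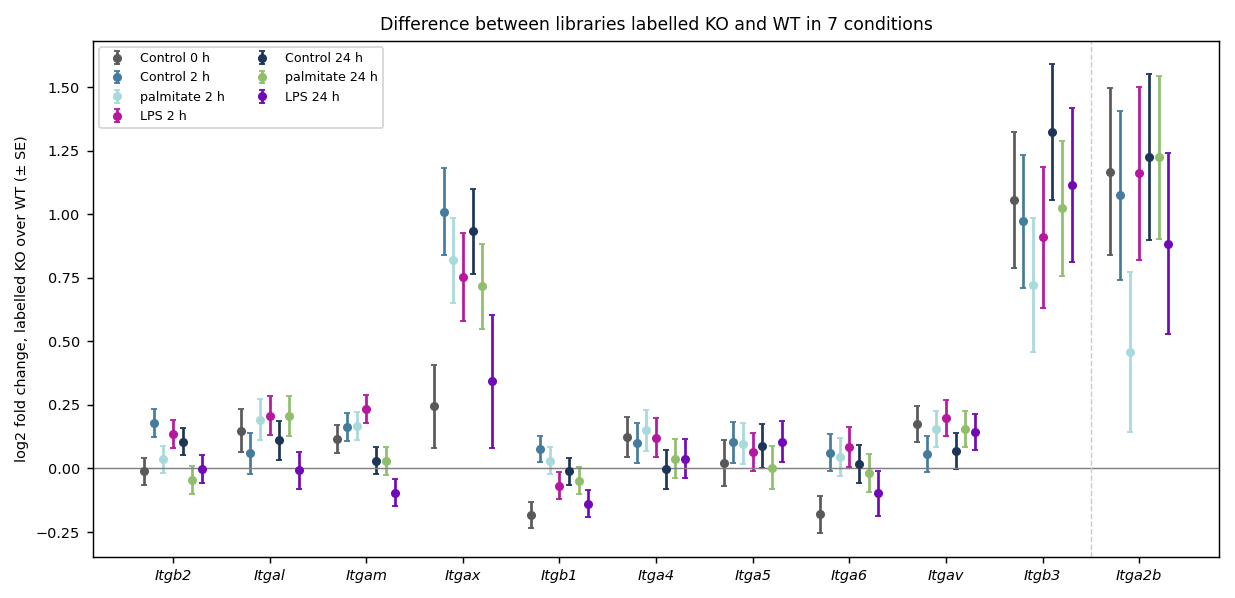
Log2 fold change with SE of libraries labelled KO over WT in each of 7 conditions for the 10 integrin subunits and, right of the dashed line, Itga2b. Itgb3, Itga2b and Itgax lie above 0 in all 7 conditions and the other subunits within 0.25 of 0.

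Itga2b, the alphaIIb chain that pairs with beta3 in platelets, was not one of the 10 and was also higher in KO. Its mean was 9.65 CPM in WT and 21.5 CPM in KO at Control 0 h (log2 1.17, SE 0.33, adjusted p 0.0137 by edgeR), and over the 7 conditions it was 1.03 higher on the log2 scale (SE 0.13, adjusted p 6.68e-08). Markers of other cells moved with the genotype as well. Of 8 megakaryocyte or platelet markers 5 passed the filter, and their level summed over all 8 was 35.6 to 91.4 CPM in WT and 36.5 to 105 CPM in KO. Pf4, which made up most of it, was lower in KO at Control 0 h (-0.54, adjusted p 0.0149) and at 0.11 over the 7 conditions (SE 0.06, not called). Ppbp (0.81, SE 0.19) and Gp1ba (0.79, SE 0.23) were called higher over the 7 conditions, at medians of 2.91 and 1.45 CPM. None of the 8 was at 0 in all libraries, and Gp9, Gp1bb and Gata1 were at 0 in 7, 9 and 7 of 42.

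Osteoclasts also carry alphaV beta3. Of 8 osteoclast markers 5 passed the filter, and the summed level was 198 to 326 CPM in WT and 217 to 328 CPM in KO. Acp5 (0.19, SE 0.04) and Dcstamp (0.86, SE 0.29) were called higher over the 7 conditions, and Calcr and Oscar were at 0 in 37 and 39 of 42 libraries. Granulocyte precursor markers summed to 60.2 to 171 CPM in WT and 95.7 to 221 CPM in KO. Of these 3 of 4 tested were called higher over the 7 conditions, beside 6.03% of all genes. Fibroblast markers summed to 0.38 to 65.8 CPM in WT and 1.74 to 317 CPM in KO. Over the 7 conditions 4 of 5 were called higher, beside 6.03% of all genes. At Control 0 h 4 of 5 were also higher (6.4% of all genes), and 0 were called in each other single condition. Col1a1, Col1a2 and Col3a1 were at 0 in 9, 15 and 14 of 42 libraries. The 5 tested may have passed the filter only through the libraries where they are high, which limits these counts. The libraries of a group could lie far apart, with 2.80, 20.8 and 317 CPM in KO at palmitate 2 h. Their part in the Itgb3 result was not tested.

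Itgax was higher in KO in 7 of 7 conditions, which is a description of the values for which it had been noticed. At Control 0 h the WT libraries had 49.4, 58.6 and 39.8 CPM and the KO libraries 48.9, 57.0 and 68.2 CPM, with overlap. At Control 2 h the WT libraries had 28.1, 27.5 and 36.2 CPM and the KO libraries 64.6, 64.8 and 56.5 CPM. The log2 differences were 0.24 at Control 0 h, 1.01 at Control 2 h, 0.82 at palmitate 2 h, 0.75 at LPS 2 h, 0.93 at Control 24 h, 0.72 at palmitate 24 h and 0.34 at LPS 24 h. The libraries were separate in the 6 conditions after 0 h. At palmitate 24 h this margin was narrow, since WT library 2 had 61.7 CPM beside 23.4 and 31.6 in the others of its group and KO had 66.1, 62.7 and 62.1 CPM. The 8 dendritic cell markers together gave only 3.58 to 12.3 CPM in WT and 3.96 to 15.6 CPM in KO, and Xcr1 and Cd209a were at 0 in 36 and 35 of 42 libraries. Of 5 tested, Flt3 (1.54, SE 0.28) and Siglech (1.85, SE 0.32) were called higher in KO over the 7 conditions, at medians of 0.931 and 0.764 CPM. Both may have passed the filter only through the libraries where they are high, which limits this count. The other 3 were not called and lay below 0, Zbtb46 at -0.53, Batf3 at -0.37 and Ccr7 at -0.13. At Control 0 h alone 0 of the 5 were called higher in KO and 1 lower, beside 6.4% and 6.06% of all genes. The part of these markers in the Itgax values was not tested.

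Itgb1 at Control 0 h had 547, 514 and 505 CPM in WT and 463, 455 and 461 CPM in KO (log2 -0.18, SE 0.05, adjusted p 0.0152 by edgeR). The call was lost without any KO library (adjusted p 0.0585 to 0.0654) or WT library 1 (0.101). Itgam at LPS 2 h had 794, 804 and 819 CPM in WT and 951, 937 and 956 CPM in KO, 1.18-fold higher (adjusted p 0.029). Though the libraries were well apart, the call was lost without any 1 of the 6 (adjusted p 0.059 to 0.123). Without KO library 2, 4 of 9 members were called at Control 0 h in place of 2, with Itgam, Itga6 and Itgav added and Itgb1 lost.

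Of the 16 other integrin subunits 9 passed the filter. Itgb5, an alphaV partner that binds vitronectin, was by far the most abundant of them at 104 CPM per kb on average, above the 55.4 of Itgav. It fell with LPS, from 450 to 204 CPM at 24 h in WT (log2 -1.14, SE 0.07, adjusted p 1.81e-18 by edgeR) and from 448 to 213 CPM in KO, and was called slightly lower at 2 h in both. Itgb7, the beta chain of alpha4 beta7, rose at 24 h from 6.07 to 18.5 CPM in WT (log2 1.62, SE 0.23) and from 6.60 to 23.0 CPM in KO. Itgb8, which with alphaV activates latent TGF-beta, rose from 0.775 to 3.36 CPM at 2 h in WT (log2 2.05, SE 0.58) and from 0.886 to 5.84 CPM at 24 h (2.72, SE 0.54). Those Control means lie at the level of 3 counts (0.387 to 1.05 CPM), and its lowest library had 1 count. Itgb8 may have passed the filter only through the LPS groups, which limits its part in the counts below. Itga2b (-0.99, SE 0.31) and Itgad (-2.19, SE 0.80) were lower at LPS 24 h in KO, and in WT neither was called. Itgad had only 0 to 27 counts per library, with its lowest group mean at LPS 24 h in KO, which also limits its part in these counts. In all 2 of 9 other subunits were called at LPS 2 h in each genotype, beside 23.1% of all genes in WT and 23.9% in KO. At LPS 24 h 3 of 9 were called in WT and 5 of 9 in KO, beside 39.5% and 40.9% of all genes. Over all libraries the mean was 31.0 CPM for Itga9, 2.33 for Itga1, 1.90 for Itga8 and 0.760 for Itga11. Itga2, Itga3, Itga7, Itga10, Itgae, Itgb4 and Itgb6 did not pass the filter, with at most 8 counts in any library.

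Integrins must be switched on from inside the cell, by talin, kindlins and Rap1, and they signal through Src-family kinases and Syk. Of 35 tested genes in a list of such activators and adaptors, 10 were higher and 1 lower at LPS 2 h in WT, beside 14% and 9.1% of all genes. At 24 h 14 were higher and 11 lower, beside 19.6% and 19.9%. In KO 14 were higher and 2 lower at 2 h (14.7% and 9.16% of all genes), and 12 higher and 11 lower at 24 h (19.9% and 21.0%). The median log2 fold change of the list in WT was 0.09 at 2 h and -0.005 at 24 h. At 2 h Src was at 93.1 against 20.7 CPM in WT (log2 2.18, SE 0.14, adjusted p 5.49e-18 by edgeR) and Syk at 935 against 580 CPM (0.69, SE 0.05). At 24 h Syk was at 742 against 423 CPM (0.81, SE 0.05). The actin crosslinker Actn1 (-0.91, SE 0.08) and the talin-binding Kank2 (-1.20, SE 0.12) were the named lower genes. Palmitate at 24 h gave 2 higher in WT, Syk (0.24) and Cytip (0.64), where 0.852% of all genes were called, and 1 in KO, Syk (0.25), where 0.877% were.

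The ligands and counter-receptors that these integrins bind were listed as well, and 27 of 42 were tested. At LPS 2 h in WT 3 were higher and 0 lower, beside 14% and 9.1% of all genes, and at 24 h 2 were higher and 7 lower, beside 19.6% and 19.9%. In KO 5 were higher and 1 lower at 2 h (14.7% and 9.16% of all genes), and 1 higher and 5 lower at 24 h (19.9% and 21.0%). The median of the 27 in WT was -0.08 at 2 h and -1.14 at 24 h. More genes lay at or below the 24 h median than the 7 called lower, so it rests in part on genes not called. Fibroblast markers, of which Col1a1 is also in this list, summed to 4.49, 4.97 and 51.7 CPM in the WT Control 24 h libraries. In the WT LPS 24 h libraries they summed to 1.54 to 5.13 CPM. Their part in that median was not tested. Icam1, the ligand of LFA-1 and Mac-1, went from 84.0 to 928 CPM at 2 h in WT (log2 3.46, SE 0.08, adjusted p 1.845e-37 by edgeR) and from 53.2 to 182 CPM at 24 h. Vcam1, bound by alpha4 integrins, went from 31.1 to 128 CPM at 2 h (2.05, SE 0.18). At 24 h the alphaV ligands Spp1 (osteopontin), from 1118 to 289 CPM (-1.95, SE 0.16), and Mfge8, from 157 to 58.0 CPM (-1.44, SE 0.21), were lower. Thbs1 (thrombospondin 1) was higher at LPS 24 h in WT (0.97, SE 0.16) and lower at palmitate 2 h in WT (-0.76, SE 0.16, adjusted p 0.0098). Over the 7 conditions 12 of the 27 were higher and 2 lower in KO, beside 6.03% and 5.33% of all genes, among them Spp1 (0.44, SE 0.06) and Fn1 (3.06, SE 0.53) higher and Vcam1 (-0.61, SE 0.08) lower. Fn1 and the collagens in that list are also made by fibroblasts, whose markers moved with genotype as given above. Col1a1, at 0 in 9 of 42 libraries, may have passed the filter only through the libraries where it is high, which limits its part in these counts.

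The shape of each subunit over the 14 group means of log2 CPM can be compared with that of every gene of at least 1 CPM. This is a description over 14 points that share libraries and scaling, with no test. Itga5 was closest to Nfkbia (r = 0.99), the NF-kappaB inhibitor, and Zc3h12a (0.99), an RNase induced with cytokines. Itgav was closest to Sfpq (0.99) and Spag9 (0.99), Itga6 to Nek6 (0.99) and Rnf150 (0.99), and Itga4 to Clec4d (0.95) and Ero1l (0.94). Itgax was closest to Smc2 (0.98) and Mmp12 (0.97), Itgal to Adgb (0.98) and Hcls1 (0.97), and Itgam to Gbp9 (0.97) and Klra2 (0.96). Itgb2 was closest to Hp (0.96) and then to its own partner Itgam (0.95), the closest pair within the set. Itgb1 was closest to Eif1 (0.96) and Tagln2 (0.95), and Itgb3 to Lrrc27 (0.96) and Cavin2 (0.96). Within the set Itga6 was nearest to Itgax (0.89) and ran against Itgam (-0.87), and Itgal was nearest to Itgam (0.86).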

How the data were processed

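RNA was read from 42 BMDM libraries prepared with a stranded, ribodepleted total RNA kit and sequenced in paired ends. Per the labels and the study's methods, the authors aligned reads to mm10 with STAR 2.7.3a (fastp 0.19.11 is also named in the processing notes) and deposited raw counts per gene. The annotation release and the strand setting of the counting are not given in the sources used here. The column names gave each group, and 0 columns were left unmapped. Symbols were matched to 32620 of 37310 Ensembl IDs through GENCODE M21. CPM was computed here from the deposited counts with TMM library sizes. Genes were filtered with filterByExpr, which kept 11624 genes and 99.9% of the counts, and were fitted with edgeR 4.0.16 in R 4.3.3 with 1 mean for each of 14 groups. SE is the log2 fold change divided by the square root of F, and 95% intervals follow from the SE. Calls used an adjusted p under 0.05. DESeq2 1.42.0, RLE size factors, all genes with at least 1 count, only the libraries compared, no Control 0 h groups and leaving out each library were the alternatives. The script was tested on simulated counts. No 2 libraries of a group agreed within sampling noise (chi-square per degree of freedom at least 1.93). The subunits and the gene lists were chosen with earlier results of these data known. The text names all 10 subunits, the other subunits tested, at most 2 genes per direction of the activator and ligand lists by adjusted p, the 2 closest genes of at least 1 CPM by Pearson r (prior count 2), and Irf5 and Lyz2, and 1 gene of the activator list is not reported here. T or NK cell and B cell marker lists each had 1 of 8 genes tested, Cd4 and Cd79b, which were called lower in KO at Control 0 h and neither was over the 7 conditions.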

Additional observations from a re-analysis of the deposited data

Results flagged for a closer look

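The effect of LPS at 24 h differed from its effect at 2 h for 9 of the 10 integrin subunits, by a direct test of that difference over both genotypes (edgeR, adjusted over all genes, where 46.3% were called). The 24 h effect was lower than the 2 h effect for Itgax (-2.96 on the log2 scale), Itgav (-1.64), Itga6 (-1.63), Itga5 (-1.23), Itgb3 (-1.13) and Itga4 (-0.92). It was higher for Itgam (0.42), Itgal (0.39) and Itgb2 (0.24). For Itgb1 the difference was -0.12 (SE 0.05, adjusted p 0.0618) and was not called by edgeR, while DESeq2 called it (adjusted p 0.0274). Itgav rose at 2 h and fell at 24 h, Itga5 rose at both times but less at 24 h, and Itga6 fell at both times but more at 24 h. The 2 h and 24 h effects were each taken against their own Control libraries.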

How the results depend on the processing

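No paired analysis was possible because the columns carry only the name of the group and no replicate number, and the libraries are numbered here in column order. Of 58 called differences of single subunits, 48 kept their direction and call with RLE size factors, with all genes that had a count, with only the libraries compared, with DESeq2 and without each library in turn. Without both Control 0 h groups, 43 of the 58 could be fitted and 43 kept direction and call. Of the 58, 10 lost the call in at least 1 setting, and 0 changed direction. Of 174 differences not called, 20 gained a call in at least 1 setting. The number of members called moved as follows. For palmitate 24 h in KO it was 1, and 0 with RLE size factors and 2 with only the libraries compared. For KO against WT with all genes kept it was 1 at Control 0 h (2 as reported), 1 at Control 2 h (0), 1 at palmitate 2 h (0), 2 at LPS 2 h (1), 1 at palmitate 24 h (0) and 1 at LPS 24 h (0). With only the libraries compared it was 1 at Control 0 h, 3 at Control 2 h, 0 at LPS 2 h and 1 at palmitate 24 h, and for the palmitate effect at 24 h against 2 h it was 2 (0 as reported). DESeq2 gave 1 at Control 2 h. The cause of these changes was not tested. Leaving out 1 library gave 0 to 1 for palmitate 24 h in WT (1 as reported), 0 to 0 in KO (1), and for KO against WT 1 to 4 at Control 0 h (2), 0 to 1 at Control 2 h (0), 0 to 0 at LPS 2 h (1), 0 to 1 at Control 24 h (1), 0 to 1 at palmitate 24 h (0) and 0 to 1 at LPS 24 h (0). For the palmitate effect at 24 h against 2 h it gave 0 to 1 (0). With the longest transcript as length, the mean level was 48.4 CPM per kb for Itgal, 129 for Itgb1, 16.9 for Itga4, 51.5 for Itga6 and 84.5 for Itgav. The median log2 fold change of all genes stayed between -0.033 and 0.013 as reported and with RLE size factors, all genes, only the libraries compared and DESeq2. Depth limits Itgb3 and Itgax most, with 37 and 45 counts in their lowest libraries.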
